A study of Homo sapiens with 12 samples.

Results

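The alpha and beta tubulins described here are 10 genes, chosen by name from the 58302 genes measured in every library. The alpha tubulins are TUBA1A, TUBA1B, TUBA1C and TUBA4A, and the beta tubulins are TUBB, TUBB2A, TUBB2B, TUBB3, TUBB4B and TUBB6. RNA was sequenced from 769-P and ACHN cells, human renal cancer lines that the labels both describe as clear cell renal cell carcinoma. Each line was transfected for 48 h with siRNA against NUF2 (siNUF2) or with control siRNA (siControl). Per the legend of a supplementary figure, the study mixed siRNAs against NUF2 for the knockdowns that followed its first siRNA tests. The 12 libraries form 4 groups with 3 replicates apiece, and every comparison rests on these established lines alone. Nothing in the labels says whether replicates were separate cultures, so the p-values measure the spread between these libraries only.

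Alpha and beta tubulin join as a dimer, and dimers stack head to tail into microtubules, the polymers of the mitotic spindle, of cell shape and of transport. Humans carry several genes for each, called isotypes, whose proteins are most alike in the body and least alike in the acidic tail at the carboxyl end, where motor proteins and modifying enzymes act. Kinetochores hold the ends of spindle microtubules through the NDC80 complex, of which NUF2 is a subunit. Tubulin mRNA is also known to be controlled by the amount of free tubulin: when free dimers are in excess, TTC5 binds the start of the tubulin chain as it leaves the ribosome, and with SCAPER it brings in the CCR4-NOT complex, which shortens the poly(A) tail and leads to decay of the mRNA. The comparison addresses how mRNA of each isotype stood in cells transfected with siRNA against this kinetochore subunit.

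The starts of the coding sequences are shown because the chain they encode is what TTC5 reads. They are in the GENCODE 29 annotation of GRCh38, 5′ to 3′, with the first 12 bases in capitals, which hold the start codon and the next 3 codons.
TUBA1B: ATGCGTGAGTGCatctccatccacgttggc
TUBA4A: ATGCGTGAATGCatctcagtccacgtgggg
TUBB: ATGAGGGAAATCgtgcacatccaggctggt
TUBB4B: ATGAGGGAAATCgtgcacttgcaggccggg
TUBB2A: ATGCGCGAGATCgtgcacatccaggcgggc
TUBB2B: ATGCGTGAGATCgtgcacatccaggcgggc
The 10 genes used 6 different 12-base starts. TUBA1A, TUBA1B and TUBA1C were identical over all 30 bases, TUBB and TUBB4B shared their first 12 bases and differed at 4 of the 30, and TUBB2A and TUBB2B differed at 1 of the 30. In the alpha tubulins the stretch is split by an intron after the start codon. On the reverse strand it lies at chr12:49131298-49131300 and chr12:49129696-49129722 in TUBA1B, and at chr2:219253856-219253858 and chr2:219252204-219252230 in TUBA4A. The beta stretches are unbroken, at chr6:30720507-30720536 in TUBB and chr9:137241361-137241390 in TUBB4B on the forward strand, and at chr6:3157434-3157463 in TUBB2A and chr6:3227514-3227543 in TUBB2B on the reverse strand.

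The ends of the coding sequences are shown because they encode the isotype tails. The last 30 coding bases are given with the stop codon included.
TUBA1C: gacggagaggatgagggtgaagagtattaa
TUBA4A: tatgaggacgaggatgagggagaagaataa
TUBB: ttcggtgaggaggccgaagaggaggcctaa
TUBB4B: gaggaggaggctgaggaggaggtggcctag
TUBB2A: gaggaggaggagggcgaggacgaggcttaa
TUBB2B: gaggaggaggagggcgaggacgaggcgtag
TUBA1C and TUBA4A differed at 13 of the 30 bases. The last codon before the stop was tat in TUBA1C and gaa in TUBA4A, the alpha tubulin known for being made without the tyrosine at its end. TUBB and TUBB4B differed at 12 of the 30 bases, and TUBB2A and TUBB2B at 2. These ends lie at chr2:219250352-219250381 in TUBA4A, chr6:3153863-3153892 in TUBB2A and chr6:3224751-3224780 in TUBB2B on the reverse strand. On the forward strand they lie at chr12:49273198-49273227 in TUBA1C, chr6:30724368-30724397 in TUBB and chr9:137243527-137243556 in TUBB4B.

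Sequence this alike limits how well reads can be placed. Over the coding sequence, TUBB2A and TUBB2B were identical at 98.1% of aligned bases and TUBA1B and TUBA1C at 97.3%, whereas TUBB and TUBB4B were identical at 84.6%. Of the 100-base windows of annotated transcripts, 48.9% in TUBB2A and 46.0% in TUBB2B also occurred in a transcript of another gene, against 3.27% in TUBB4B and 15.2% in TUBB. TUBA1B shared 28.3% of its windows, most of them with the gene AC011603.2, which was at 0.151 FPKM or less in every library. Whether TUBA1B lost reads in these windows was not tested. TUBB2A and TUBB2B are therefore uncertain as separate values, and so, to a smaller extent, are the TUBA1 genes. TUBA4A (chr2:219249711-219278170, reverse strand) shared 12.4% of its windows with the overlapping gene STK16, and TUBB6 (chr18:12307669-12344320) shared 13.2% with AFG3L2. Whether counting used strand is not given in the sources used here, so reads in these overlaps cannot be told apart by strand. The genes TUBA1A (chr12:49184796-49189324, reverse strand) and TUBA1C (chr12:49188736-49274603, forward strand) also overlap at their starts.

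Between 29244018 and 38864846 reads per library were recovered from the deposited values, and the members drew from 21 reads (TUBB2B in a 769-P library) to 52959 reads (TUBB). NUF2 was at 4.17, 3.86 and 3.01 FPKM (fragments per exon length and library size) with siNUF2 and at 19.4, 17.8 and 17.8 with siControl in 769-P cells. In ACHN cells the values were 2.16, 5.14 and 4.25 with siNUF2 and 11.6, 15.01 and 14.8 with siControl, so the target was lower in all 6 same-numbered pairs. The log2 difference was -2.29 in 769-P (adjusted p = 0.00126) and -1.88 in ACHN cells (adjusted p = 0.235; 0.0122 with the replicate number as a block). Of 7 markers of renal epithelium and its carcinoma, PAX8, PAX2, KRT8, KRT18 and VIM were above 5 FPKM in every library, CDH6 reached 2.35 to 8.19 FPKM in 769-P cells but at most 0.00472 in the other line, and CA9, a hypoxia target abundant in clear cell tumors, was at 0.121 or less in both lines. Of 6 markers of other cells, PTPRC, PECAM1, COL3A1, ALB and DES were at 0.0461 FPKM or less, and COL1A1 ranged from 0.0692 to 0.140 in 769-P libraries and from 1.14 to 3.87 in ACHN libraries. The ACHN libraries with the number 2 stood apart from the others of their line in PAX8 (57.1 and 57.6 FPKM, others 144 to 199.5), and the part of this in the tubulin values was not tested. Of the 6 renal markers tested in 769-P cells, PAX8 passed (log2 -0.44, adjusted p = 0.0332) and the median log2 difference was 0.19. With the replicate number as a block, PAX8 and CDH6 were lower and KRT8, KRT18, PAX2 and VIM higher with siNUF2 in this line. Of all genes, 10% were called there without the block and 27.6% with it. In ACHN cells 5 renal markers were tested and 0 passed without the block. With it 2 were higher and 0 lower, beside 12.2% of genes. The part of these markers in the tubulin values was not tested.

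A few isotypes made up most of the tubulin mRNA in both lines. Levels are given in FPKM, which are per exon length. The order of genes therefore depends on the exon length used and on how well reads could be placed. With siControl in 769-P cells, for example, TUBB drew 45500 to 49316 reads over 3359 exon bases. TUBB4B drew 26674 to 27805 reads over 2111 bases. In 769-P cells with siControl, TUBB, the most widely expressed beta tubulin, was at 463, 422 and 453 FPKM and TUBB4B, a beta tubulin of most cells and of cilia, at 439, 394 and 407. Their values overlapped, so their order is not resolved. TUBA1B, a ubiquitous alpha tubulin, followed at 289, 257 and 221 FPKM, and TUBA1C, another alpha tubulin of dividing cells, at 101, 91.8 and 78.6. TUBB6 was at 49.7, 43.4 and 38.8 FPKM, and each of these last 3 genes was clear of its neighbors in the order. TUBA1A, the main alpha tubulin of developing neurons, was at 7.71, 17.9 and 18.9 FPKM and overlapped with TUBB2A at 8.36, 7.13 and 7.06. TUBA4A was lower, at 4.08, 3.14 and 3.45. TUBB3, known as the neuronal beta tubulin, and TUBB2B were at the bottom and overlapped, at 0.521 to 0.802 and 0.426 to 0.647 FPKM.

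In ACHN cells with siControl the leading genes were closer together. TUBB was at 185, 185 and 191 FPKM, TUBA1B at 136, 187 and 190, and TUBB4B at 138, 139 and 160, and each overlapped with the next in this order. TUBA1C was at 45.6, 46.1 and 61.4 FPKM, TUBA1A at 48.9, 31.3 and 32.4, and TUBB6 at 35.6, 30.8 and 39.3. TUBA1A overlapped with both of the others, TUBA1C was wholly above TUBB6, and TUBB6 overlapped with TUBB2B, which stood at 31.1, 23.0 and 26.6 FPKM. TUBB2A was at 16.7, 9.10 and 10.1 and TUBA4A at 9.18, 9.78 and 9.17, again without separation. TUBB3 was last, at 0.913, 0.820 and 0.693 FPKM.

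**Figure D1:**
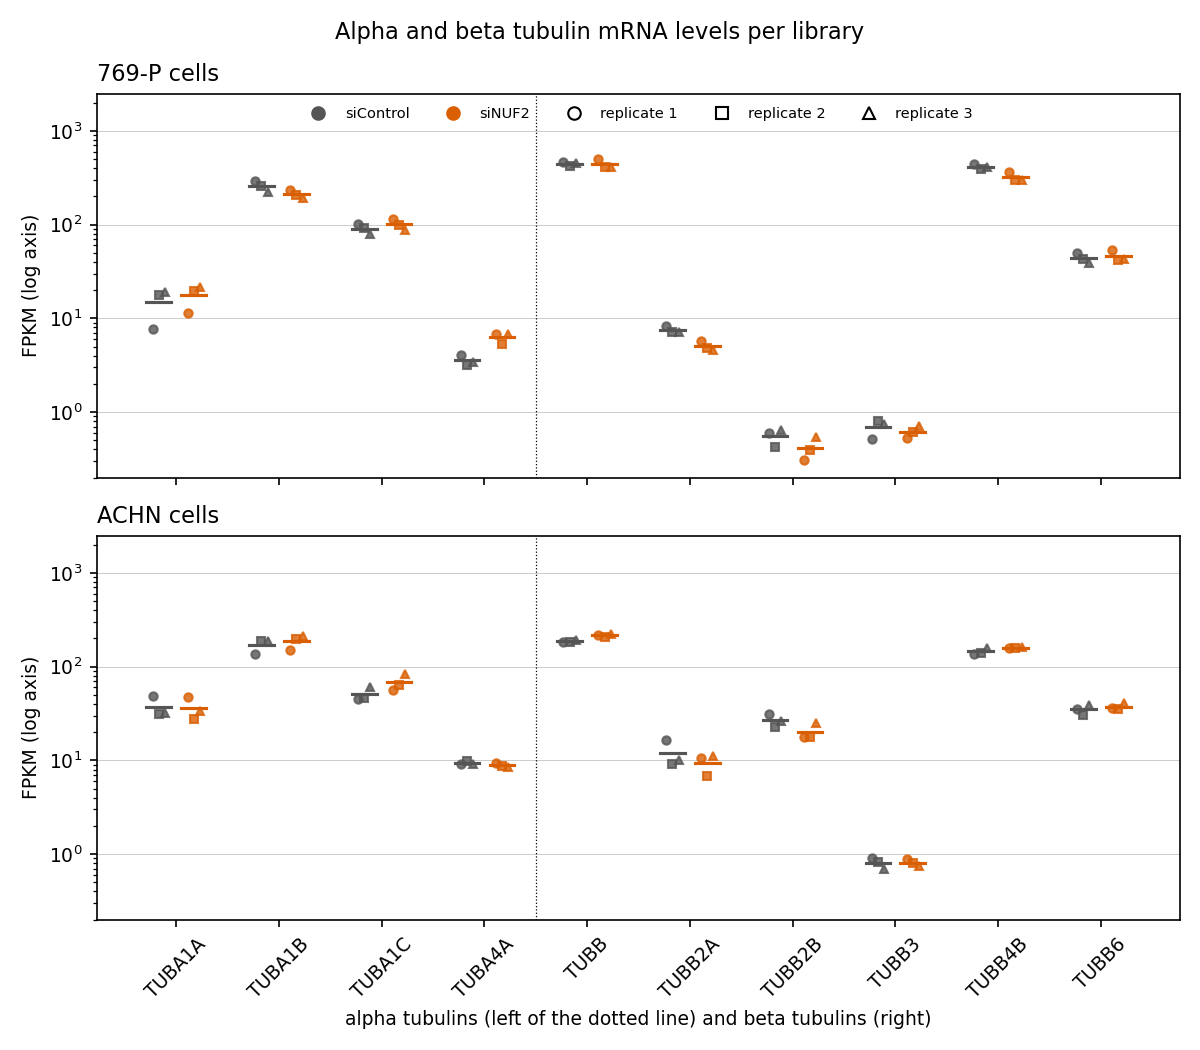
FPKM of the 10 tubulin genes in each of the 12 libraries on a log axis, 769-P cells above and ACHN cells below, grey for siControl and orange for siNUF2; marker shapes give the replicate number and bars the mean of 3. TUBB2B sits between 0.305 and 0.647 FPKM in the 769-P panel and between 17.7 and 31.1 in the ACHN panel, while TUBB3 stays under 1 FPKM in both.

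The lines differed in most isotypes. With siControl, 8 of the 10 members differed between ACHN and 769-P cells at an adjusted p under 0.05 (limma, all 12 libraries in the fit), beside 63.7% of the 16579 genes tested, so a share this high is near that of genes in general. Of the 8, 4 were higher and 4 lower in ACHN cells, beside 32.7% and 31% of genes. TUBB2B differed most, by 5.37 on the log2 scale (SE 0.21, adjusted p = 7.6e-09), or 41.3-fold on the scale of FPKM plus 0.1. Its near-identical neighbor TUBB2A was 1.54-fold higher in ACHN cells (log2 0.62, SE 0.23, adjusted p = 0.0375). Without ACHN siControl replicate 1, the library with the highest TUBB2A, its difference was 0.37 (adjusted p = 0.143), and it also missed the threshold without 769-P siControl replicate 2 (0.0907) or 3 (0.0946). The 2 low alpha tubulins were both higher in ACHN cells, TUBA1A 2.67-fold (log2 1.42, SE 0.36, adjusted p = 0.00563) and TUBA4A 2.62-fold (log2 1.39, SE 0.12, adjusted p = 3.35e-06).

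The 4 abundant isotypes were all lower in ACHN cells. TUBB4B stood at 0.354 of its 769-P level (log2 -1.50, SE 0.09, adjusted p = 2.45e-07) and TUBB at 0.422 (log2 -1.24, SE 0.08, adjusted p = 4.37e-07). Among the alpha tubulins, TUBA1C stood at 0.565 (log2 -0.82, SE 0.18, adjusted p = 0.00192) and TUBA1B at 0.669 (log2 -0.58, SE 0.17, adjusted p = 0.0135). TUBA1B missed the threshold without 769-P siControl replicate 1 (log2 -0.48, adjusted p = 0.0555) or without ACHN siControl replicate 1 (-0.42, 0.0523). TUBB3 (log2 0.23, adjusted p = 0.305) and TUBB6 (log2 -0.31, adjusted p = 0.0635) did not pass, though TUBB6 did without 769-P siControl replicate 3 (adjusted p = 0.041) or without ACHN siControl replicate 3 (0.0391). In these bulk samples, fewer cells with a transcript and less of it per cell cannot be told apart.

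In summed FPKM, the beta members exceeded the alpha members in every library. With siControl the 6 beta genes summed to 912 ± 46.7 FPKM and the 4 alpha genes to 364 ± 40.1 (SD, n = 3) in 769-P cells, a ratio of 2.52 ± 0.26. In ACHN cells the sums were 407 ± 20.0 and 269 ± 27.1 FPKM and the ratio was 1.52 ± 0.15. Over the 6 libraries of a line, siControl and siNUF2, the ratio ranged from 2.32 to 2.82 for 769-P and from 1.37 to 1.70 for ACHN, without overlap.

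The composition of the pools is given as each gene's percent of the summed FPKM. These shares, and the ratios above, depend on exon length and read placement too. TUBB and TUBB4B together held nearly all beta tubulin mRNA of 769-P cells, at 48.9% ± 0.94 and 45.3% ± 0.43 with siControl and 54.3% ± 0.07 and 39.4% ± 0.09 with siNUF2 (SD, n = 3). All 3 siNUF2 libraries had a higher share of TUBB (54.23% to 54.35%) than any siControl library (48.16% to 49.97%), and a lower share of TUBB4B (39.2% to 39.4% against 44.8% to 45.7%). In the alpha pool of 769-P cells TUBA1B held 70.0% ± 1.7 with siControl and 62.9% ± 0.97 with siNUF2, and TUBA1C 24.8% ± 0.37 and 29.9% ± 1.3, also without overlap. In ACHN cells TUBB held 46.0% ± 1.6 and 48.8% ± 0.49 of the beta pool in siControl and siNUF2, and TUBB4B 35.7% ± 1.7 and 35.9% ± 0.97, with no overlap between the groups for TUBB (44.75% to 47.75% against 48.28% to 49.24%) and wide overlap for TUBB4B. TUBA1C held 18.9% ± 2.1 and 22.6% ± 1.9 of the ACHN alpha pool, again without overlap. TUBB2B held 6.60% ± 0.92 of the ACHN beta pool with siControl and 4.54% ± 0.77 with siNUF2, also without overlap, against 0.0611% ± 0.011 in 769-P siControl cells. Shares of a pool are tied to each other, and no test was run on them.

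**Figure D2:**
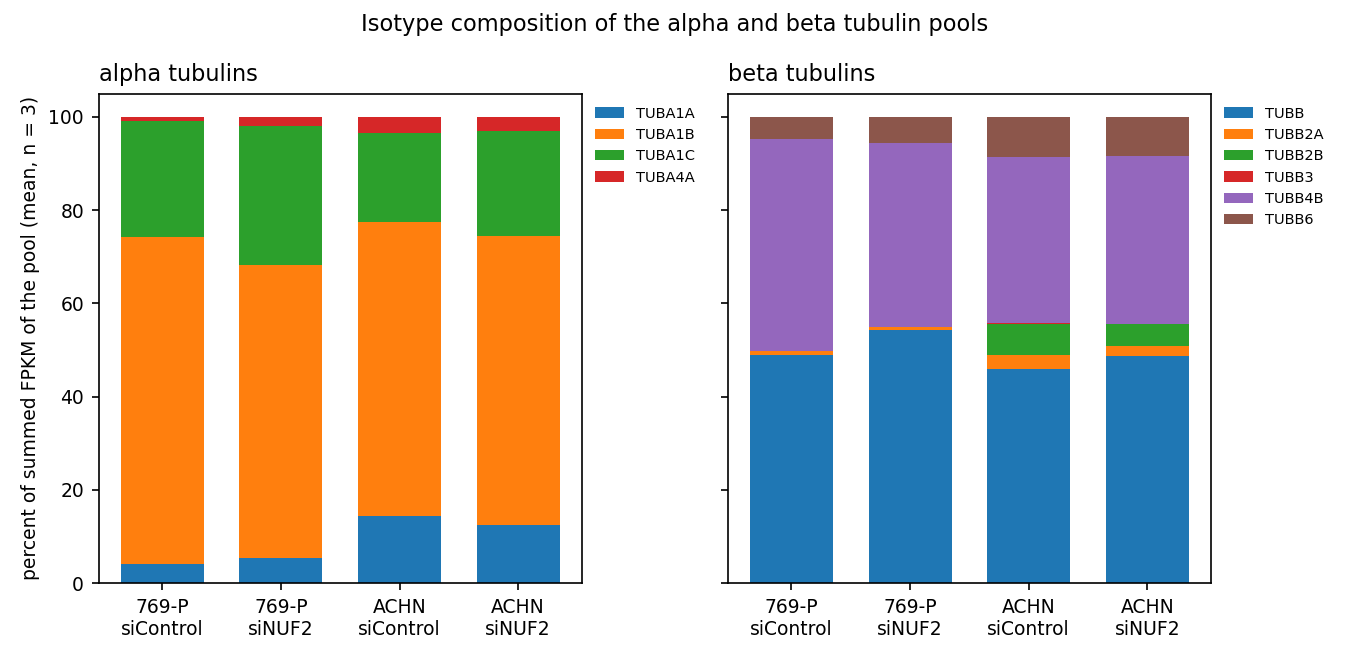
Mean percent of the summed FPKM of the alpha pool (left) and the beta pool (right) held by each gene, n = 3 libraries per bar, with each stacked bar adding up to the whole pool. In 769-P cells the TUBB4B block is smaller with siNUF2 (39.4%) than with siControl (45.3%), and a TUBB2B block (6.60% and 4.54%) is visible only in the ACHN bars.

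In 769-P cells, siNUF2 was accompanied by more TUBA4A and less TUBB2A. At an adjusted p under 0.05, 2 of the 10 members passed (limma on log2(FPKM + 0.1), no block), 1 in each direction, beside 10% of the 14157 genes tested (5.45% higher and 4.56% lower). With the replicate number as a block 5 members passed, 2 higher and 3 lower, beside 27.6% of genes (13.9% and 13.7%). With all 12 libraries in the fit and no block only TUBA4A passed, beside 4.34% of genes in either direction and 2.71% higher. The median log2 fold change of the 10 members was -0.06. The members are therefore reported one by one.

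TUBA4A was at 6.72, 5.28 and 6.88 FPKM with siNUF2 and at 4.08, 3.14 and 3.45 with siControl in 769-P cells, replicates 1 to 3 in order. All 3 siNUF2 libraries were above all 3 siControl libraries. TUBA4A rose 1.76-fold (log2 0.82, SE 0.14, adjusted p = 0.0184; with the block SE 0.08, adjusted p = 0.0062). Without siNUF2 replicate 1 or 3 or siControl replicate 2 or 3 the log2 difference was 0.73 to 0.80 and the adjusted p 0.0541 to 0.0693. The overlapping gene STK16, picked after its values were seen, was at 5.96 ± 0.44 FPKM with siNUF2 and 6.24 ± 0.05 with siControl (SD, n = 3, log2 -0.05, SE 0.08, adjusted p = 0.723). The part of the overlap in the TUBA4A values was not tested.

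TUBB2A was at 5.78, 4.79 and 4.54 FPKM with siNUF2 and at 8.36, 7.13 and 7.06 with siControl, again with no overlap. It fell to 0.679 of the control level (log2 -0.56, SE 0.12, adjusted p = 0.0328; with the block SE 0.05, adjusted p = 0.00615). Leaving out siNUF2 replicate 2 or 3 or any siControl library gave -0.60 to -0.48 and an adjusted p of 0.0662 to 0.108, while leaving out siNUF2 replicate 1 kept the call (0.0362). Its near copy TUBB2B, at 0.305 to 0.548 against 0.426 to 0.647 FPKM, was within the spread (log2 -0.35, SE 0.29, adjusted p = 0.488), and rested on 21 to 46 reads a library.

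Of the abundant members, TUBB4B and TUBA1B were lower and TUBA1C was higher with siNUF2 in each same-numbered pair, and their calls changed with the block. TUBB4B was at 364, 301 and 301 FPKM with siNUF2 and at 439, 394 and 407 with siControl, without overlap. It stood at 0.785 of the control level (log2 -0.35, SE 0.09, adjusted p = 0.0567) and passed with the block (SE 0.04, adjusted p = 0.00811), and also without siNUF2 replicate 1 in the fit without the block (log2 -0.44, adjusted p = 0.0367). Without the block it passed, too, with no further scaling (adjusted p = 0.0496) and by limma-voom on recovered reads (0.0314). TUBA1B was at 236, 205 and 190.5 FPKM with siNUF2 and at 289, 257 and 221 with siControl. The groups overlapped in the third siControl library, and the difference was -0.26 (SE 0.12, adjusted p = 0.211; with the block SE 0.04, adjusted p = 0.0115). TUBA1C was at 115, 98.7 and 87.1 FPKM with siNUF2 and at 101, 91.8 and 78.6 with siControl, overlapping between groups (log2 0.16, SE 0.13, adjusted p = 0.479; with the block SE 0.04, adjusted p = 0.0332). With the block but without the libraries numbered 2, TUBA1B (adjusted p = 0.0857), TUBA1C (0.155) and TUBB4B (0.0544) missed the threshold, and without those numbered 1 TUBA1C did (0.144).

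Nor did TUBB pass there. Its level was 503, 416 and 415 FPKM with siNUF2 and 463, 422 and 453 with siControl. The first siNUF2 library was the highest of the 6 and the other two were the lowest, so the groups overlapped (log2 0.00, 95% interval -0.21 to 0.21, adjusted p = 0.989). TUBB6 was at 42.1 to 53.8 against 38.8 to 49.7 FPKM (log2 0.08, adjusted p = 0.731) and TUBB3 at 0.525 to 0.704 against 0.521 to 0.802 (log2 -0.11, adjusted p = 0.792). AFG3L2, which shares windows with TUBB6, was higher with siNUF2, at 21.4 ± 0.4 against 17.9 ± 0.6 FPKM (log2 0.28, SE 0.06, adjusted p = 0.0371). Its part in the TUBB6 values was not tested. TUBA1A was higher in all 3 pairs, at 11.3, 19.7 and 21.6 FPKM against 7.71, 17.9 and 18.9, with the libraries numbered 1 low in both groups (log2 0.31, SE 0.38, adjusted p = 0.658; with the block SE 0.09, adjusted p = 0.0606, and 0.039 with the block and all 12 libraries in the fit). In all, 3 members were higher and 4 lower in each of the 3 same-numbered pairs, beside 31.4% and 31.7% of genes, and 3 members had groups that did not overlap, 1 higher and 2 lower, beside 33.3% of genes (17% and 16.2%).

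**Figure D3:**
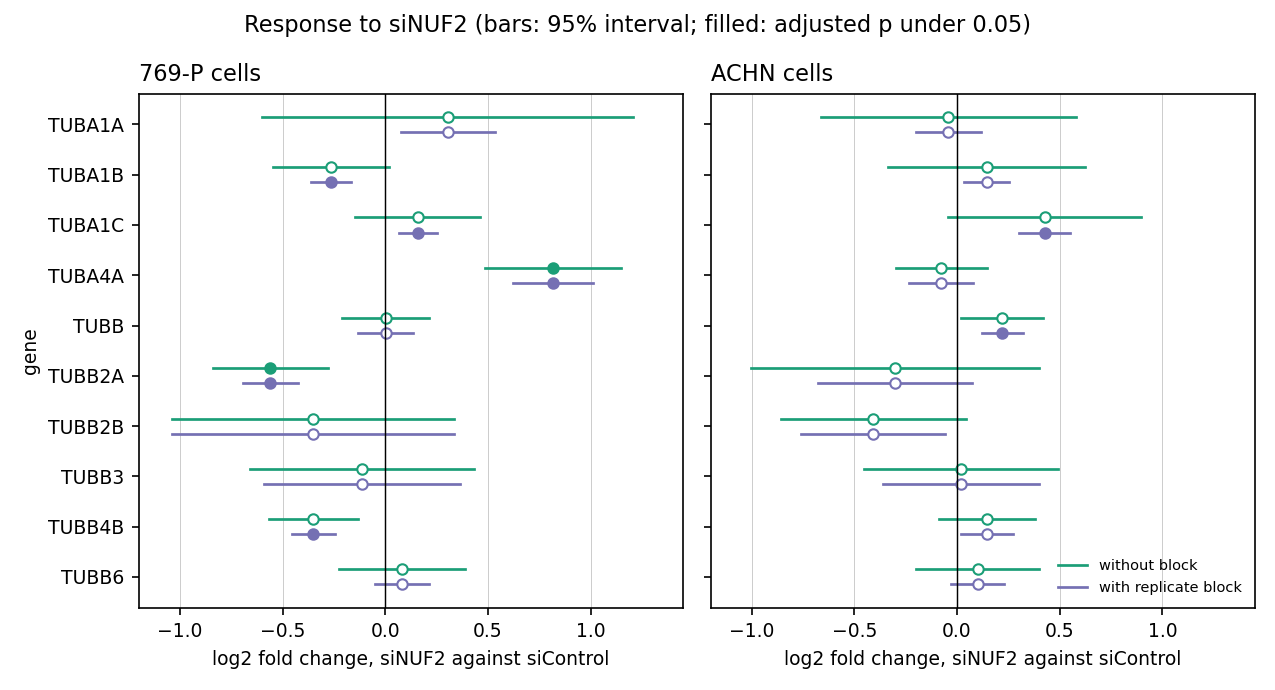
Log2 fold change of siNUF2 against siControl for each tubulin gene in 769-P (left) and ACHN cells (right), from limma without the block (green) and with it (purple); bars are 95% intervals and filled points have an adjusted p under 0.05. TUBA4A (0.82) and TUBB2A (-0.56) are filled in both fits on the left, and on the right only TUBA1C (0.43) and TUBB (0.22) are filled, with the block alone.

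In ACHN cells no member passed without the block, nor did any other of the 15112 genes tested (0%), although 1230 genes had an unadjusted p under 0.05. With the block 2 members passed, TUBA1C and TUBB, both higher with siNUF2, beside 12.2% of genes in either direction, 6.8% higher and 5.36% lower. With all 12 libraries in the fit and no block no member passed, beside 0.977% of genes. The median log2 fold change of the 10 members was 0.06.

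TUBA1C was at 56.6, 64.2 and 84.5 FPKM with siNUF2 and at 45.6, 46.1 and 61.4 with siControl in ACHN cells. It was higher in all 3 pairs by 0.33 to 0.48 on the log2 scale, and the groups overlapped only because siControl replicate 3 was above siNUF2 replicate 1. The log2 difference was 0.43 (SE 0.19, adjusted p = 0.659; with the block SE 0.05, adjusted p = 0.0163), and with the block but without the libraries numbered 3 it was 0.41 (adjusted p = 0.0875). In that last fit 0 of 14281 genes passed. TUBB was at 216, 209 and 226 FPKM with siNUF2 and at 185, 185 and 191 with siControl, the only member whose groups did not overlap in ACHN cells, beside 14.4% of genes (8.39% higher). Its difference was 0.22 (SE 0.08, adjusted p = 0.563; with the block SE 0.04, adjusted p = 0.0334), and with any number left out of both groups the blocked adjusted p was 0.0905 to 0.128. Without numbers 1, 2 and 3 those fits called 208, 790 and 0 genes.

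The other members did not pass in either fit in ACHN cells. TUBA1B was at 151, 197 and 215 FPKM with siNUF2 and at 136, 187 and 190 with siControl (log2 0.14, adjusted p = 0.966; with the block 0.0886). TUBB4B was at 157, 158 and 164 against 138, 139 and 160 FPKM (log2 0.15, adjusted p = 0.825; with the block 0.115). Both were higher in all 3 pairs, by small steps. TUBA4A was at 9.33, 8.71 and 8.47 against 9.18, 9.78 and 9.17 FPKM, higher in 1 pair of 3 (log2 -0.08, 95% interval -0.30 to 0.14). TUBB2B was lower in all 3 pairs, at 17.8, 17.7 and 25.4 against 31.1, 23.0 and 26.6 FPKM (log2 -0.41, SE 0.19, adjusted p = 0.659; with the block 0.117). TUBB2A (log2 -0.30), TUBA1A (-0.04), TUBB6 (0.10) and TUBB3 (0.02) had blocked adjusted p of 0.229 or more. AFG3L2, which shares windows with TUBB6, was at 9.95 ± 0.55 FPKM with siNUF2 and 7.15 ± 0.70 with siControl, and its part in the TUBB6 values was not tested. In all, 5 members were higher and 1 lower in each of the 3 pairs of ACHN cells, beside 28.1% and 26.7% of genes. The libraries numbered 1 were set off in both groups, with the lowest TUBA1B and the highest TUBA1A of the line.

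**Figure D4:**
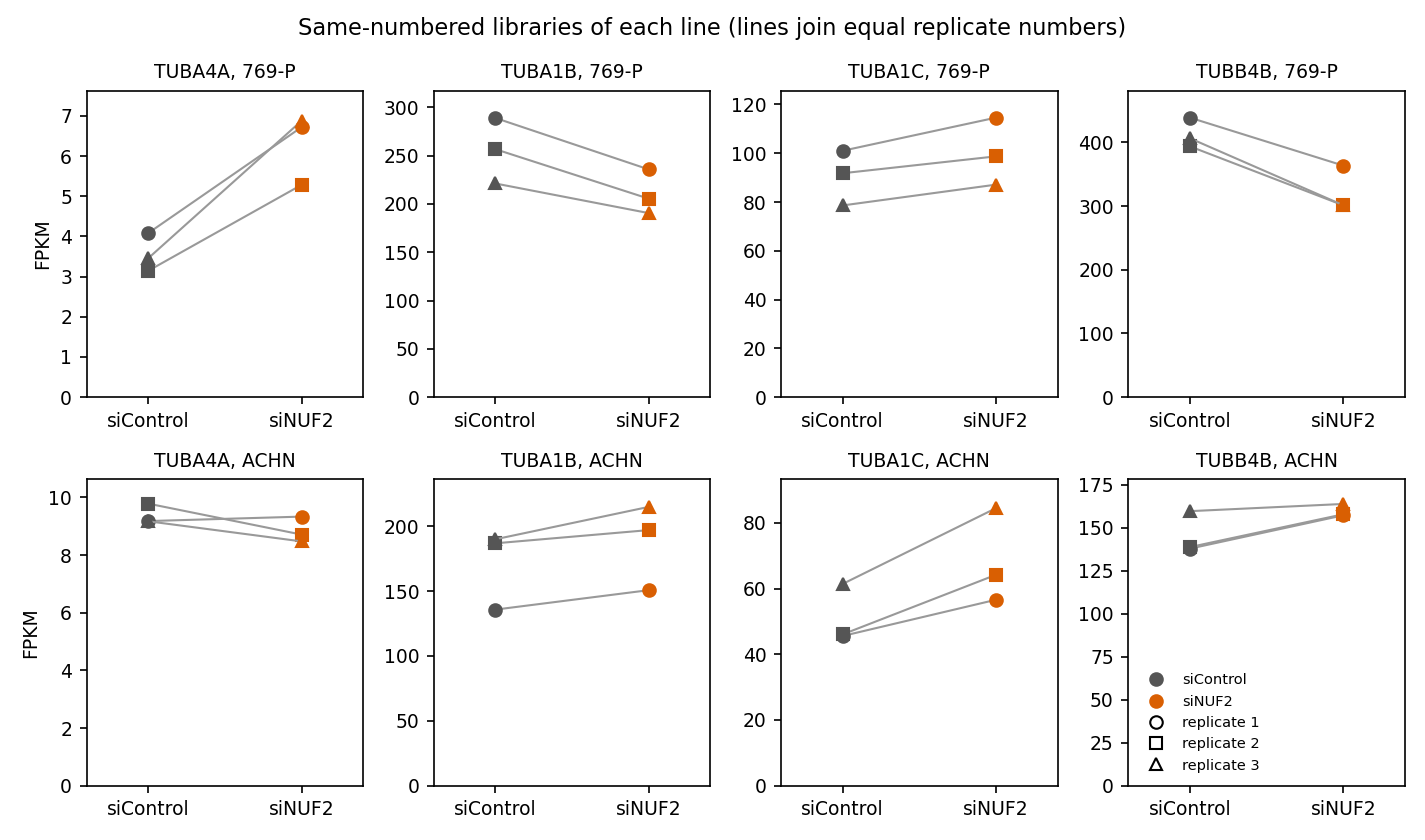
FPKM of TUBA4A, TUBA1B, TUBA1C and TUBB4B with siControl (grey) and siNUF2 (orange) in 769-P (top) and ACHN cells (bottom), with lines joining libraries of the same replicate number and axes starting at 0. TUBA1C goes up in all 6 pairs, and TUBB4B goes down in the 3 pairs of 769-P cells and up in the 3 pairs of ACHN cells.

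Whether the lines responded differently was tested with an interaction term. Without the block no member and no other gene passed (0% of 16579; 765 had an unadjusted p under 0.05). With the block 3 members did, TUBA4A, TUBB4B and TUBA1B, 1 below and 2 above 0, beside 1.42% of genes (0.905% and 0.513%). TUBA4A responded more in 769-P cells, by 0.90 on the log2 scale (ACHN minus 769-P -0.90, SE 0.10, adjusted p = 0.0315). For TUBB4B (0.49, SE 0.07, adjusted p = 0.036) and TUBA1B (0.40, SE 0.05, adjusted p = 0.0358) the response was below 0 in 769-P and above 0 in ACHN cells. None of the 3 passed with the block once the libraries of any number were left out of all groups (adjusted p 0.107 to 0.243). Almost no gene passed in those fits: 1 of 15919 without number 1, 0 of 15894 without number 2 and 0 of 15819 without number 3. TUBA1C, higher in all 6 pairs, had a difference of 0.26 (SE 0.06, adjusted p = 0.0832 with the block).

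The summed pools were compared by permutation of the libraries. In 769-P cells the alpha pool with siNUF2 was at 368, 329 and 306 FPKM against 402, 370 and 322, a log2 ratio of -0.11 (exact permutation test, two-sided, p = 0.5). The beta pool was at 927, 765 and 764 against 961, 868 and 907 FPKM (log2 -0.14, exact p = 0.3). In ACHN cells the alpha pool was at 264, 297 and 342 against 239, 274 and 293 FPKM (log2 0.17, exact p = 0.4), and the beta pool at 438, 427 and 468 against 407, 388 and 428 (log2 0.13, exact p = 0.1). With 3 libraries against 3 this test cannot give a p below 0.1. Each pool was lower in the 3 pairs of 769-P cells and higher in all 3 pairs of ACHN cells.

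Genes that act on tubulin mRNA, on the folding of the protein and on microtubules were followed as lists, whose counts stand beside the 10% of all genes called in 769-P cells without the block, 27.6% with it, and 12.2% called in ACHN cells with it. Of the autoregulation list, 1 of 11 genes passed in 769-P cells: CNOT11, the CCR4-NOT subunit that links the complex to TTC5 and SCAPER, fell from 31.5 ± 0.26 to 24.3 ± 1.2 FPKM (log2 -0.36, SE 0.06, adjusted p = 0.0197). With the block 2 of 11 were lower there, CNOT8 (log2 -0.28) being the other. In ACHN cells none passed without the block, and with it CNOT11 (48.0 ± 3.1 to 39.1 ± 1.2 FPKM, log2 -0.28, SE 0.04, adjusted p = 0.0253) and TTC5 (4.71 ± 0.46 to 3.72 ± 0.25 FPKM, log2 -0.32, SE 0.07, adjusted p = 0.0444) were lower. In 769-P cells TTC5 was at 1.04 ± 0.06 against 1.31 ± 0.06 FPKM (log2 -0.30, adjusted p = 0.194; with the block 0.116). The median log2 fold change of the list was -0.04 in 769-P and -0.08 in ACHN cells.

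No gene passed in either line, with or without the block, among the 6 folding cofactors, which assemble the dimer (median log2 -0.06 for 769-P and -0.01 for ACHN), or the 6 subunits of prefoldin, which hands new tubulin to the CCT chaperonin (-0.02 and -0.08). None of the 8 CCT subunits passed without the block. With it, CCT5 and CCT3 were higher and CCT6A lower in 769-P cells (log2 0.36, 0.19 and -0.27), whereas CCT5 alone passed in ACHN cells, from 30.3 ± 0.62 to 43.4 ± 2.1 FPKM (log2 0.52, SE 0.05, adjusted p = 0.0122). The gamma-tubulin ring complex, which starts new microtubules, had 1 of 11 genes past the threshold in 769-P cells, its small subunit MZT1 (19.2 ± 1.5 to 25.7 ± 3.1 FPKM, log2 0.43, SE 0.10, adjusted p = 0.0465). MZT1 was also the gene of this list that passed in ACHN cells with the block (11.2 ± 1.4 to 15.6 ± 1.8 FPKM, log2 0.49, SE 0.05, adjusted p = 0.0137). The block added TUBG1 (log2 -0.22) and MZT2A (-0.17), both lower, in 769-P cells.

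Among tubulin modifying enzymes, 14 of 18 were tested in 769-P cells and 2 rose. AGBL5, which removes branch point glutamates from tails, went from 6.50 ± 0.22 to 8.84 ± 0.54 FPKM (log2 0.45, SE 0.08, adjusted p = 0.0184), and TTLL11, which lengthens glutamate chains, from 0.946 ± 0.033 to 1.47 ± 0.17 (log2 0.59, SE 0.14, adjusted p = 0.0438). With the block SIRT2, a deacetylase of alpha tubulin, was higher as well (log2 0.28). In ACHN cells 17 were tested and none passed without the block. With it TTLL12 was higher (log2 0.39, SE 0.04, adjusted p = 0.0162) and TTLL1, a glutamylase, lower (log2 -0.40, SE 0.08, adjusted p = 0.0403).

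The list of microtubule-associated and end-binding proteins had 3 of 21 tested genes past the threshold in 769-P cells. The plus-end proteins CLIP1 (2.75 ± 0.27 to 4.73 ± 0.21 FPKM, log2 0.77, SE 0.10, adjusted p = 0.00939) and CLIP2 (9.33 ± 0.84 to 14.0 ± 0.37 FPKM, log2 0.60, SE 0.09, adjusted p = 0.0118) rose, and CKAP5, a microtubule polymerase, fell (log2 -0.37, adjusted p = 0.0233). With the block 7 were higher and 3 lower of the 21, beside 13.9% and 13.7% of all genes. In ACHN cells 4 of 20 were higher with the block and none without: CLIP1 (log2 0.33, SE 0.05, adjusted p = 0.0207), PRC1, a bundler of antiparallel microtubules (0.31, SE 0.04, adjusted p = 0.0217), TPX2 and CLIP2. Of 12 tested depolymerases and severing proteins none passed without the block. With the block, FIGN was lower in 769-P cells (log2 -0.22). STMN1, which binds free dimers, was higher in ACHN cells (22.5 ± 6.0 to 27.5 ± 6.9 FPKM, log2 0.30, SE 0.04, adjusted p = 0.0226). Of 10 further tubulin genes, the 4 tested in each line did not pass without the block; TUBA3D (log2 -0.39) and TUBE1 (-0.41) were lower with it in 769-P cells, and the others were at 0.232 FPKM or less in every library.

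The genes whose level followed TUBA1B most closely over the 12 libraries, on log2(FPKM + 0.1) centered within each line, were GSPT1, UPP1, SUV39H1, SRSF1 and MRM3, with Pearson's r of 0.92 to 0.93 over 12932 genes. For TUBB they were NAA15, NUP205, ITGB3BP, SLC25A5 and ODC1, with r of 0.89 to 0.92. Among members, TUBB4B had the highest r with TUBA1B (0.71) and TUBA1A the lowest (-0.80), and TUBA1C had the highest r with TUBB (0.74). The 12 points share siRNA groups and libraries, so these values only describe likeness.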

How the data were processed

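Per the labels, RNA of 769-P and ACHN cells was sequenced 48 h after transfection. The authors filtered reads with fastp, and the submitters' processing notes name HISAT2 2.0.5, featureCounts 1.5.0-p3 and hg38; the strand setting, annotation release and handling of multiply mapped reads are not given in the sources used here. The authors deposited FPKM, 1 value per gene and library. The exon lengths of GENCODE 29 made 96.7% to 97.1% of values under 50 reads whole within 0.02 read, which gave each library's depth (29244018 to 38864846 reads). The total by which FPKM were divided was not this depth. It was 3.14e+07 against 33812789 reads in ACHN siControl replicate 1, and 3.85e+07 against 37295124 in replicate 2. Fits with no further scaling used the FPKM as deposited. Errors come from the spread between replicates.

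FPKM were scaled, separately for each line, by trimmed means of the log ratios to a reference library (30% of ratios and 5% of levels trimmed), and genes with at least 0.5 FPKM in at least 3 libraries were fitted as log2(FPKM + 0.1), which understates changes of low genes, with limma 3.58.1 in R 4.3.3 (trend, Benjamini-Hochberg adjustment over all genes, adjusted p under 0.05). The interaction and the difference between lines used all 12 libraries. FPKM are not counts, so the study's DESeq2 test was not used. Levels are the deposited FPKM. Fits were run on simulated data with known changes, where the only check was the median estimated change.

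Same-numbered libraries deviated together from their group means (r = 0.358, 0.272 and 0.188 in 769-P, 0.647, 0.734 and 0.463 in ACHN cells, across genes), and all other pairs had a negative r. Deviations from a group mean cancel out, so positive same-numbered values force negative ones among the other pairs. The labels do not say what a number stands for. Blocked values stand where they change a call.

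Members and lists were chosen with earlier results of these data known. The text names all members, NUF2, up to 2 passing genes of each list per line with the largest change, and the 5 genes most like TUBA1B and TUBB. CKAP5, genes that passed only with the block in 769-P cells, TPX2, CLIP2 in ACHN cells, STK16, AFG3L2 and AC011603.2 were named after their values were seen. Alternatives were the replicate block, pseudocounts of 1 and 0.01, no filter, median-ratio or no scaling, an adjusted p under 0.01, all 12 libraries in 1 fit, and each library left out; limma-voom on recovered reads, the block in the 12-library fit and the block without a number were chosen after seeing the data. Sequences were read from GENCODE 29 transcripts. Some items are not reported here.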

Additional observations from a re-analysis of the deposited data

Results flagged for a closer look

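With the replicate block, the response to siNUF2 differed between the lines in 3 tubulin genes, by the test of the difference itself. The difference, ACHN minus 769-P on the log2 scale, was 0.399 for TUBA1B, -0.902 for TUBA4A and 0.487 for TUBB4B, with adjusted p of 0.0358, 0.0315 and 0.036. In the fit without the block the same differences had adjusted p of 1, 0.819 and 0.928, and with the block and any number left out none passed (0.107 to 0.243). Over all genes, the blocked fits without number 1, 2 or 3 called 1 of 15919, 0 of 15894 and 0 of 15819. Neither the cause of the difference between the lines nor that between the fits was tested.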

How the results depend on the processing

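In 769-P cells 2 members passed without the block. The count was 3 with no further scaling, 5 with the replicate block, 6 with all 12 libraries in one fit with the block, 1 with all 12 in one fit without it, 0 with no filter on low values and 0 at an adjusted p under 0.01. Leaving out 1 library gave 0 to 2 members without the block, beside 388 to 1134 genes called. With the block, leaving the libraries numbered 1, 2 or 3 out of both groups gave 4, 2 and 5 members. Over all genes these blocked fits called 2431 of 13581, 1026 of 13545 and 3049 of 13557. In ACHN cells the count was 0 without the block and 2 with the replicate block, in the fit of the line and of all 12 libraries alike. It was 1 with the block and without replicate 1 or replicate 2, and 0 without replicate 3. Over all genes these fits called 208 of 14412, 790 of 14354 and 0 of 14281. The difference in response counted 0 members without the block and 3 with it. Between the lines, 8 members passed and 6 to 9 under the alternatives. Over all genes 10561 of 16579 passed, and 8534 to 12520 under the alternatives. The block was not run for that contrast, because each replicate number belongs to 1 line. The member added by the block in the 12-library fit and not in the fit of 769-P cells alone was TUBA1A (adjusted p = 0.039 against 0.0606). The limma-voom fit on recovered reads gave 3, 0, 0 and 9 members in these comparisons. Over all genes it called 1847 of 14124, 0 of 15075, 0 of 16535 and 10253 of 16535. Over all genes the block moved the calls from 1416 to 3905 in 769-P, from 0 to 1837 in ACHN cells and from 0 to 235 for the difference. No filter gave 639 calls, all 12 libraries in 1 fit 719 and the stricter threshold 173 in 769-P cells, against 162 in ACHN cells with all 12. With all 12 in 1 fit and the block, 4575 of 16579 genes passed in 769-P and 2464 in ACHN cells. With no further scaling, 1430 of 14159 passed in 769-P cells.

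Of the values of single members under the alternatives, 28 changed sign and 718 kept their direction and their side of the threshold. A further 27 passed only under the alternative, and 22 no longer passed. Those that changed sign were all of members that did not pass. In 769-P cells TUBB was -0.011 with no further scaling, -0.0897 to 0.0494 with 1 library left out and -0.0573 with the block and without replicate 1. TUBB6 was -0.0334 to 0.18 and TUBA1A -0.103 to 0.592 with 1 library left out. In ACHN cells the values were -0.256 to 0.157 for TUBA1A, -0.0209 to 0.292 for TUBA1B and -0.0731 to 0.0951 for TUBB3 with 1 library left out. With the block, TUBA1A was 0.0292 without replicate 2 and TUBB3 -0.0182 without replicate 3. For the difference in response the values were -0.629 to 0.0734 for TUBA1A, -0.237 to 0.125 for TUBB2B and -0.0793 to 0.139 for TUBB6 with 1 library left out. TUBB2B was 0.00251 with a pseudocount of 0.01 and 0.0542 with the block and without replicate 2, where TUBB6 was -0.0983. TUBB2B was under the filter in 3 of 6 fits of 769-P cells with 1 library left out. TUBB2B in 769-P cells and TUBB3 drew 21 to 145 reads a library, and every other value rested on 238 reads or more.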
